A study of Rattus norvegicus with 6 samples.

Results

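Cytotoxic and innate-like lymphocyte nuclei were found here in the rat colon as the nuclei of the T cell tables with at least 1 unique molecular identifier (UMI, 1 captured RNA molecule) summed over Klrc3, Klri1, Klre1, Gzma and Clnk, and with fewer than 3 UMIs summed over the enterocyte genes Slc26a3, Krt20, Vil1, Epcam, Slc9a3 and Cdhr5. The members were thus chosen by measured UMI counts of these 11 genes. The rule kept 113 of the 1018 T cell nuclei, out of 9800 T cell and enterocyte nuclei in all. These nuclei, called members below, were set against the 905 other T cell nuclei, and for genes against the 241 of those that were also under the enterocyte limit, called the other low-enterocyte nuclei.

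Flash-frozen colon came from male Wistar rats in 3 treatments, with 3 rats each. Sham rats had plain water throughout. The other groups had dextran sulfate sodium (DSS), an agent that damages the gut lining, at 5% in the water over 3 days, followed by 4 days of oral capsules given 2 times a day that held no drug (placebo) or 50 µg PL8177, a melanocortin 1 receptor agonist. The labels describe 1 sample per treatment and cell type and do not list rats. The tag that stands before the barcode in each nucleus name was therefore read as the rat, and every value per rat rests on that reading.

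Cytotoxic lymphocytes kill target cells by releasing granules that hold perforin and granzymes, or through Fas ligand. Natural killer cells, innate-like T cells and the intraepithelial T cells of the gut share a set of C-type lectin receptors, encoded side by side in the natural killer gene complex, which read MHC class I and related molecules on other cells. Many of these cells depend on interleukin 15 and stay in the epithelium, held by the integrin CD103, which binds E-cadherin. The rule genes cover both sides of this biology. Klrc3 encodes an NKG2 receptor that pairs with CD94, the product of Klrd1. Klri1 and Klre1 encode a receptor pair. Gzma encodes granzyme A, a serine protease of cytotoxic granules, and Clnk an adaptor related to SLP-76. Cd96, an immunoglobulin-like receptor of T and natural killer cells, and Il2ra, the alpha chain of the interleukin 2 receptor, were given as further markers. In the RefSeq gene order of the GRCr8 assembly, Klre1, Klrd1, Klrk1, Klrc3, Klrc2, Klrc1 and Klri1 follow each other on chromosome 4. Klrc1 and Klrc2, close relatives of Klrc3, are not among the genes compared here, so how reads of these relatives were shared out is uncertain.

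The 5 rule genes and both markers are given as a description, since they chose the members or came with the rule. Klri1 had 141 UMIs in 53 of the 113 nuclei, Clnk 121 UMIs in 57, Klrc3 112 UMIs in 47, Gzma 69 UMIs in 27 and Klre1 64 UMIs in 48. A killer lectin receptor was thus the usual ground for membership: 94 nuclei held UMIs of Klrc3, Klri1 or Klre1, 14 held Clnk alone, and 5 held Gzma without a lectin receptor. The genes were often seen together. Of the 47 nuclei with Klrc3, 27 also had Klri1 and 28 had Clnk, and of the 27 nuclei with Gzma, 16 had Klrc3 and 16 had Clnk. These co-detections rest on few UMIs per nucleus and can rise with its depth.

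Membership was often close to its threshold. Of the members, 40 had exactly 1 UMI of the rule genes and 21 had 2, while 14 nuclei with 10 or more held 260 of the 507 rule UMIs. Those 14 came from GR12 (6 nuclei), GR22 (3), GR15 (2), GR43 (2) and GR23 (1). Just outside the rule, 30 T cell nuclei had a rule UMI but were kept out by the enterocyte limit, 9 of them with exactly 3 enterocyte UMIs. Among the members, 62 had no enterocyte UMI, 34 had 1 and 17 had 2.

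**Figure D1:**
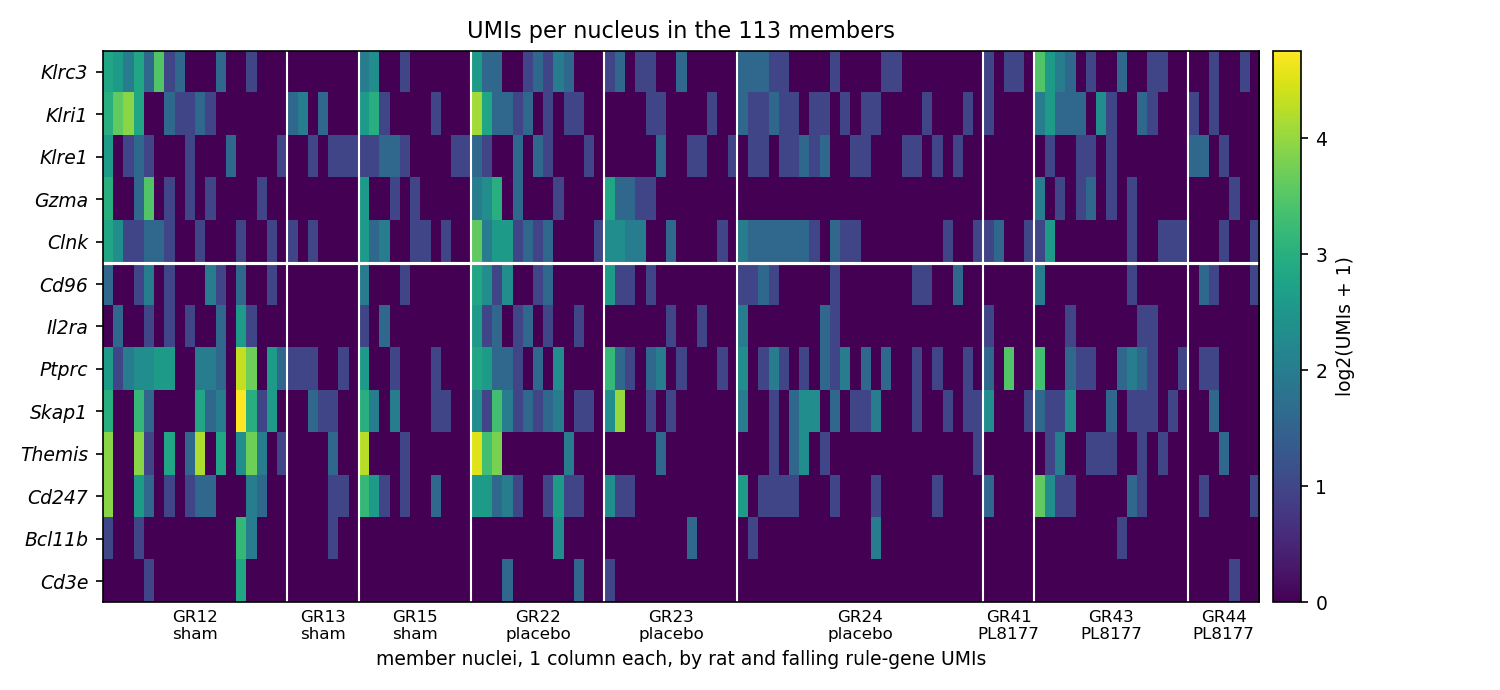
UMIs per nucleus, on a log2(UMIs + 1) colour scale, for the 113 members, 1 column each, ordered by rat and by falling total of the 5 rule genes, with the rule genes above the white line and markers and T cell genes below it. Klri1, Klrc3 and Clnk share columns at the left of GR12, GR22 and GR43, no Gzma UMI is seen in GR13, GR24 and GR41, and Themis and Skap1 are seen in many of the same columns as the lectin receptors.

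Levels of the rule genes varied widely between rats of the same treatment. Klri1 stood at 11.1, 22.7 and 14.0 UMIs per 10000 in the members of the sham rats GR12, GR13 and GR15, at 12.2, 2.5 and 8.88 in the placebo rats GR22, GR23 and GR24, and at 1.58, 12 and 9.02 in the PL8177 rats GR41, GR43 and GR44. Gzma stood at 5.68, 0 and 6.98 in sham, 6.47, 10.0 and 0 under placebo, and 0, 4.89 and 4.51 in PL8177 members. Gzma was therefore without a UMI in 1 rat of each treatment, among them GR24, which gave the most members of any rat (24 nuclei, 16886 UMIs). Clnk was detected in every rat, at 4.94, 6.49 and 13.0 in sham, 11.8, 14.2 and 13.0 under placebo, and 6.33, 5.43 and 9.02 in PL8177 members. Cd96 reached 6.85, 6.67 and 5.92 in the placebo rats, against 3.46, 0 and 3.99 in sham and 0, 2.17 and 18 in PL8177 rats. The value of 18 in GR44 rests on 4 UMIs.

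The label is set beside its markers here as a description, since Cd96 and Il2ra came with the rule. The rule itself fixes its 5 genes, whose sum is above 0 in every member and 0 in the other low-enterocyte nuclei, so they check nothing. Of the markers outside it, Cd96 was at 4.57 UMIs per 10000 in the members and 0.826 in the other low-enterocyte nuclei, and Il2ra at 3.02 and 1.26. By rat, Il2ra was lower in the members of GR15 (2.99 against 9.62) and GR44 (0 against 7.83), without UMIs in GR13, and higher in the remaining rats. Other granule genes were sparse. Of 25 listed cytotoxic effectors without the rule genes, 15 were in the tables, and 65 of the 113 members (57.5%) had a UMI of any of them. Gzmb had 15 UMIs in 8 nuclei and Gzmm, another granzyme, 14 UMIs in 11, while Rab27a and Srgn, which take part in granule release and packing in many blood cells, had 40 UMIs in 29 and 38 UMIs in 27 nuclei. A T cell marker (13 listed) had UMIs in 85 members (75.2%), against 113 of the 241 other low-enterocyte nuclei (46.9%) and 5.37% of the enterocyte nuclei. Without GR23 the first 2 shares were 78% and 61.3%, and GR41 alone had the lower share in its members (40% against 63.6%). The members were also deeper, at a median of 660 UMIs against 496, and detection can rise with depth. Themis, which acts in T cell receptor signalling, was seen in 32 members with 170 UMIs, but Cd3e, a chain of the receptor complex itself, in only 6 with 13 UMIs. Of 8 genes that mark T cells rather than natural killer cells (Cd3e, Cd3d, Cd3g, Themis, Bcl11b, Cd5, Cd6 and Trat1), at least 1 UMI was found in 42 members (37.2%). At a median of 660 UMIs per member, the lack of such a UMI in the other members does not place them outside the T lineage.

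Depth and background set how firmly these nuclei can be read. Members summed to between 2217 UMIs (GR44) and 40511 UMIs (GR12) per rat, with GR12 holding 29.9% and GR22 19.4% of all member UMIs, and their median ranged from 309 to 1984.5 UMIs per nucleus. The other low-enterocyte nuclei had a median of 496 UMIs and the enterocyte nuclei 1051. In the enterocyte tables, where these genes should be silent, 64 of 8782 nuclei (0.729%, exact 95% interval 0.562 to 0.930%) had a rule UMI, and 8 of the 1954 enterocyte nuclei under the same enterocyte limit (0.409%). GR23 stands apart: it gave 685 of the 1018 T cell nuclei, of which 594 were above the enterocyte limit. Of the barcodes, 10 occurred in 2 rats, none of them in a member, and Scrublet, a doublet caller, marked 0 of the 113 members and 84 of all 9800 nuclei.

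The first comparison asked whether the treatments differed in the share of T cell nuclei that were members. They did not differ beyond the spread between rats. The share was 24.3% (18 of 74 nuclei), 36.8% (7 of 19) and 40.7% (11 of 27) in the sham rats GR12, GR13 and GR15. It was 50.0% (13 of 26), 1.90% (13 of 685) and 26.4% (24 of 91) in the placebo rats GR22, GR23 and GR24, and 22.7% (5 of 22), 38.5% (15 of 39) and 20% (7 of 35) in the PL8177 rats GR41, GR43 and GR44. The placebo group thus held both the highest and the lowest rat, and all 3 groups overlapped. The means were 34.0% ± 8.58 (SD, n = 3) in sham, 26.1% ± 24.1 (SD, n = 3) under placebo and 27.1% ± 9.97 (SD, n = 3) in PL8177 rats. The exact two-sided permutation test gave p = 0.7 for sham against placebo, p = 1 for PL8177 against placebo and p = 0.4 for PL8177 against sham (each 1 after Benjamini-Hochberg adjustment over the 3), where 3 against 3 rats cannot go below 0.1.

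**Figure D2:**
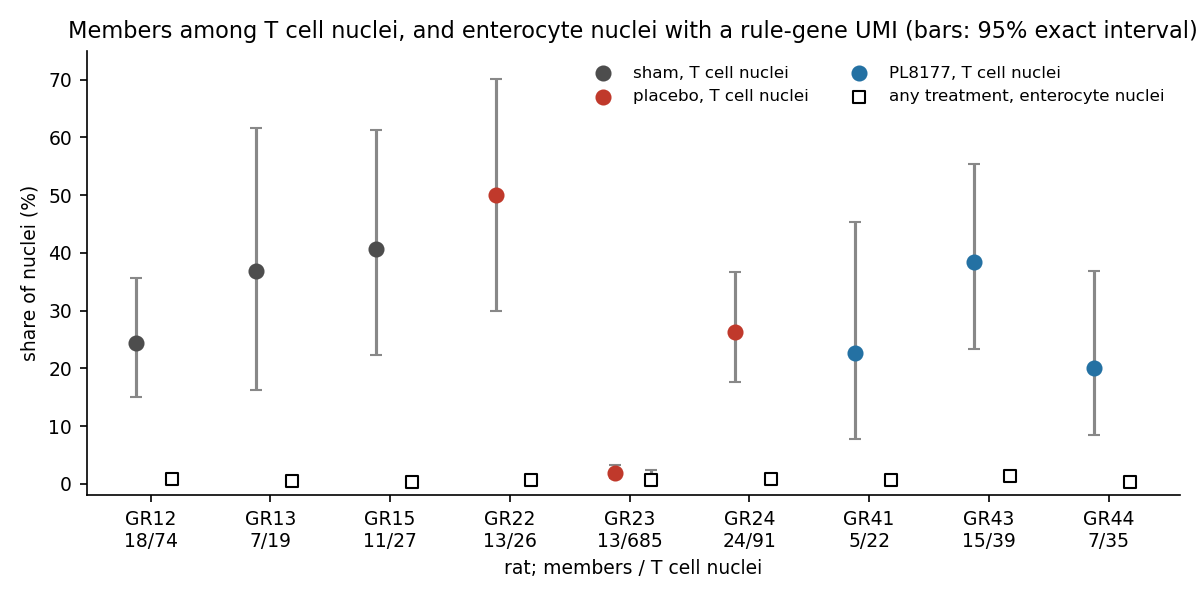
Share of T cell nuclei that were members (filled points, coloured by treatment) and share of enterocyte nuclei with a UMI of the 5 rule genes (open squares), in percent, for each of the 9 rats, with exact 95% intervals that cover counting error only. In every rat but GR23 the members lie far above the enterocyte nuclei, and the placebo rats span 1.90 to 50.0%. The T cell share of GR23 is over 685 nuclei, 594 of them above the enterocyte limit.

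The 1.90% of GR23 (exact 95% interval 1.01 to 3.22%) lay near the 0.658% of its enterocyte nuclei (0.0798 to 2.36%), and the intervals overlapped. These shares are unlike, since 594 of its 685 T cell nuclei were above the enterocyte limit. Under that limit on both sides, 13 of 91 T cell nuclei of GR23 (14.3%) had a rule UMI. The matching enterocyte nuclei of GR23 had 2 of 152 (1.32%, 0.160 to 4.67%). In the other 8 rats the lower bound of the T cell share was between 7.82% and 29.9% and the enterocyte share was at most 1.31%. GR23 moves the placebo mean: without it the placebo mean was 38.2%, and the difference of sham against placebo turned from 7.88 to -4.22 percentage points and that of PL8177 against placebo from 0.972 to -11.1. Counted only among low-enterocyte T cell nuclei, members made up 33.3, 43.8 and 45.8% for sham, 61.9, 14.3 and 30% under placebo, and 31.3, 60.0 and 25.9% under PL8177, with exact permutation p-values of 0.7, 0.9 and 0.9. Set against the enterocytes of the same rat, the sham rats had 1.94, 0.846 and 1.55 members for every 100 enterocytes, the placebo rats 0.965, 4.28 and 1.83, and the PL8177 rats 0.492, 0.980 and 0.862. These are shares of recovered nuclei, and how evenly cell types were recovered is not known. With every nucleus thinned to 300 UMIs, which left out 12 sham, 44 placebo and 7 PL8177 T cell nuclei below that depth, the sham rats stood at 16.4, 50.0 and 33.3%, the placebo rats at 37.5, 1.38 and 18.1% and the PL8177 rats at 19.0, 26.3 and 16.7%, again overlapping.

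The next comparison asked which genes outside the rule distinguished the members from the other low-enterocyte T cell nuclei of the same rat. UMIs were summed per rat and class and tested with edgeR's quasi-likelihood test with the rat as a block. Of 4373 genes with at least 20 UMIs, 34 were higher in the members (0.777% of those tested) and 17 lower (0.389%). A gene counted as called when its adjusted p was below 0.05 and its log2 fold change beyond 1.5 either way. Without the rat as a block, 44 were higher and 45 lower. The higher genes included receptors of cytotoxic lymphocytes, a cytokine receptor chain, the CD103 integrin chain and Fas ligand. The lower genes included Mrc1 and C1qa of the macrophage list and Lef1, a transcription factor of naive T cells. Over all genes tested the median log2 fold change was -0.04.

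Il2rb, the chain shared by the receptors of interleukin 2 and interleukin 15, was among the higher genes with the largest fold. Its level in members was 3.46, 0 and 3.99 UMIs per 10000 in sham, 3.04, 4.17 and 1.78 under placebo and 0, 1.63 and 0 in PL8177 rats, against at most 0.257 in the other low-enterocyte nuclei of any rat. It was higher in the members of 6 rats and without UMIs in either class in the other 3 (log2 fold change 3.48 ± 0.74 SE, edgeR adjusted p = 0.0012), on 37 and 4 UMIs.

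Faslg, the death ligand of cytotoxic cells, stood at 2.22, 6.49 and 4.99 in sham, 3.81, 0 and 1.78 under placebo and 1.58, 4.35 and 9.02 in PL8177 members. In the other low-enterocyte nuclei it was at 0 in 5 rats and at most 1.96 in the rest. It was higher in the members of 8 of 9 rats, with GR23 the exception (log2 fold change 2.65 ± 0.65 SE, edgeR adjusted p = 0.0082).

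Cd244, which encodes the 2B4 receptor of natural killer cells and CD8 T cells, was at 1.97, 3.25 and 3.99 in sham, 5.33, 5.00 and 3.55 under placebo and 1.58, 2.72 and 4.51 in PL8177 members, and at 0.122, 0 and 1.60, 0, 1.35 and 0.771, and 4.45, 0 and 0.978 in the other nuclei of the same rats. GR41 was the only rat in which it was lower in the members (log2 fold change 1.96 ± 0.56 SE, edgeR adjusted p = 0.039). Itgae, the CD103 chain, was called with a log2 fold change of 1.77 ± 0.51 SE (edgeR adjusted p = 0.045), higher in the members of 7 of 9 rats, on 54 and 20 UMIs. Cd244 and Itgae each stayed called in 3 of the 9 fits that left out 1 rat, and neither was called among nuclei with a T cell marker UMI or with no filter on low counts. Itgae was also lost when nuclei with a macrophage marker UMI were left out. Once the 14 members with 10 or more rule UMIs were left out, Faslg, Cd244, Itgae and Bcl2 were not called, and Il2rb had too few UMIs to be tested. DESeq2 gave Il2rb no adjusted p, and Faslg was not called with no filter, though each stayed called in 8 of the 9 fits that left out 1 rat.

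The smallest p-values belonged to genes not usually used as markers, named here after their values were seen. St6galnac3, a sialyltransferase, had 415 UMIs in 75 of the members against 75 UMIs in all other low-enterocyte nuclei. Its level was 40.5, 9.74 and 18.9 in sham, 26.6, 17.5 and 28.4 under placebo and 14.2, 41.3 and 22.6 in PL8177 members, against 1.46, 13.0 and 11.2, 2.16, 1.35 and 7.45, and 13.4, 2.13 and 4.89 in the others. Only in GR13, with 3 and 4 UMIs, was it lower in the members (log2 fold change 2.37 ± 0.37 SE, edgeR adjusted p = 6.64e-07). Chn2, a GTPase-activating protein for Rac, was higher in the members of all 9 rats, at 6.33 to 33.1 against 0 to 15.1 (log2 fold change 2.52, edgeR adjusted p = 1.42e-06). Chst11, a chondroitin sulfotransferase, was higher in 8 of 9 rats (2.52, edgeR adjusted p = 4.04e-06), and Sema4d, the semaphorin CD100, in all 9 (2.20, edgeR adjusted p = 0.00011).

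Of the other genes among the 10 with the largest folds, 3 rested on few rats. Cacna1e, a calcium channel subunit, had 33 UMIs in 6 members, 15 of them in 1 nucleus and 28 in GR12 (log2 fold change 3.69). Chn1, a relative of Chn2, had 21 UMIs in 11 members of 5 rats (3.46), and AABR07063740.1, an unnamed locus, 26 UMIs in 10 members of 4 rats (3.35). Lekr1 (2.88, 84 UMIs in 24 members), Dnajc6, the clathrin uncoating factor auxilin 1 (2.79, 39 UMIs in 19), Ror2, a receptor for Wnt5a (2.66, 30 UMIs in 19), and Srgap3, a GTPase-activating protein (2.53, 48 UMIs in 28), were higher in the members of 7 or 8 of 9 rats. Bcl2, which opposes apoptosis, was called at 1.52 ± 0.39 SE (edgeR adjusted p = 0.013), at 4.75 to 32.3 in the members against 0 to 8.90 in the others. It was lower in the members of both GR41 and GR43, stayed called in 3 of the 9 fits that left out 1 rat, and was not called with a T cell marker UMI required or with no filter. Cd96 is among the 34 as well, but it came with the rule and is given as a description only.

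**Figure D3:**
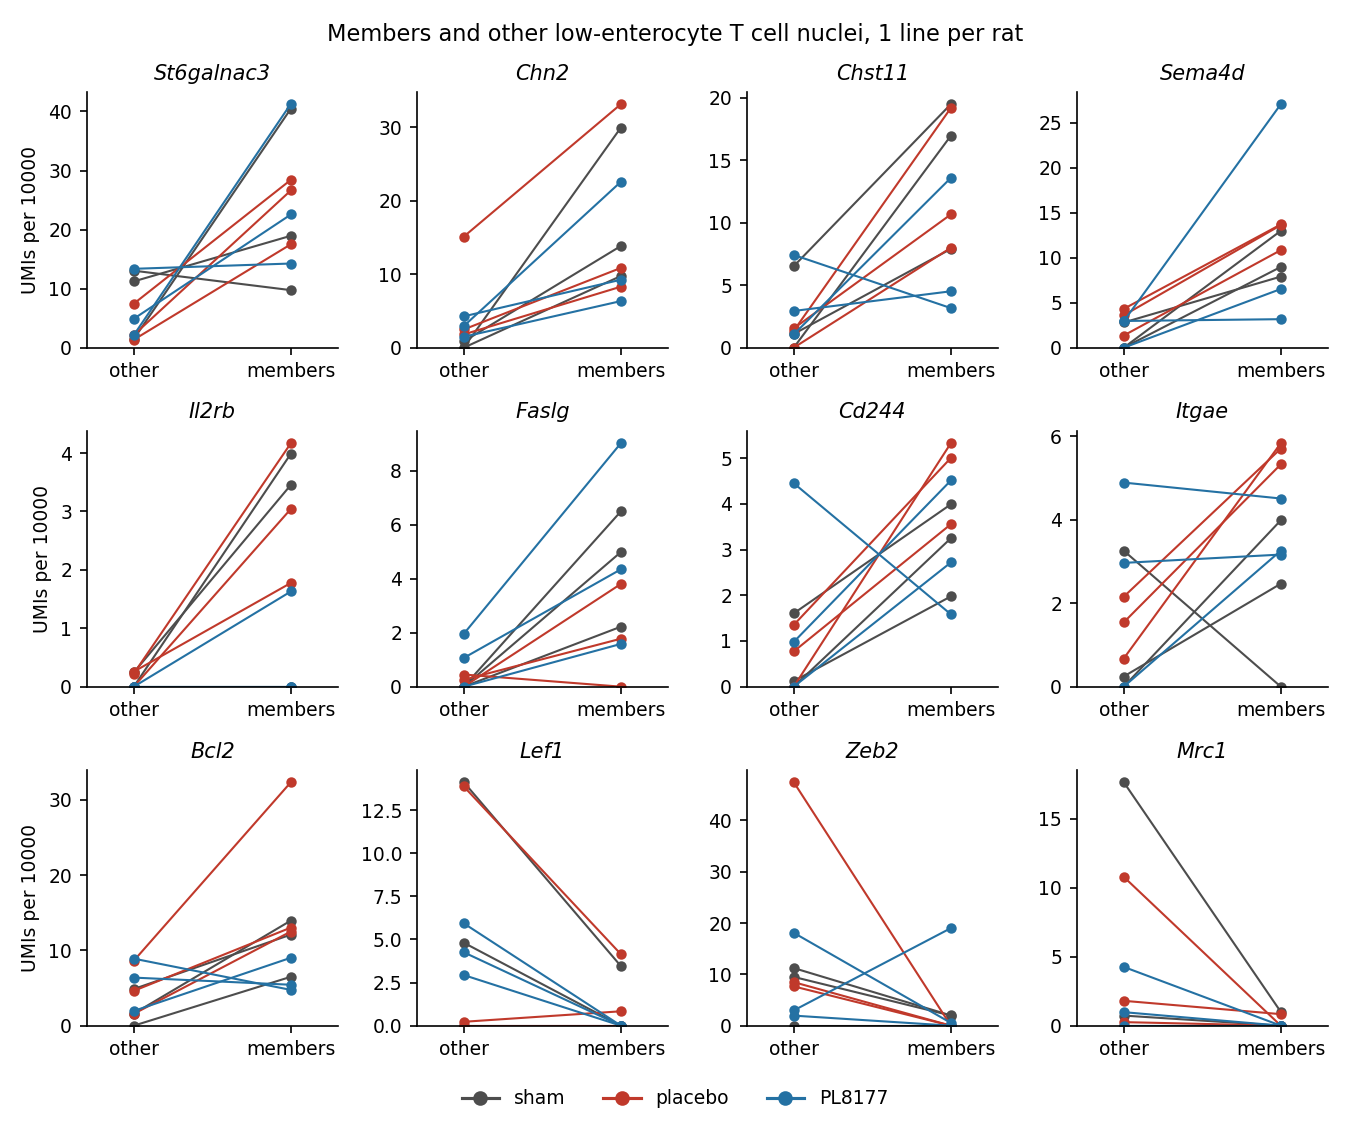
UMIs per 10000 for 12 genes in the other low-enterocyte nuclei and in the members, 1 line per rat, coloured by treatment, each panel on its own axis from 0. St6galnac3, Chn2, Chst11, Sema4d, Il2rb, Faslg, Cd244, Itgae and Bcl2 rise towards the members in most rats, Lef1, Zeb2 and Mrc1 fall in most, GR41 alone goes the other way in Chst11, Cd244 and Zeb2, and GR41 and GR43 do in Bcl2.

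Of the 5 genes of the macrophage and dendritic cell list that were tested, all 5 had a fold below 0 and 2, Mrc1 and C1qa, were called lower. The other lower genes named here are not on that list. Zeb2, a transcription factor of myeloid and effector cells, had 23 UMIs in the members against 195 in the others (log2 fold change -2.82 ± 0.48 SE, edgeR adjusted p = 4.04e-06), and was lower in the members of 7 rats, with GR41 the only rat in which it was higher. Mrc1, the macrophage mannose receptor, had 2 against 36 UMIs (-3.74), C1qa, a complement chain made by macrophages, 1 against 46 (-3.84), and Tgfbi, a matrix protein of monocytes and macrophages, 1 against 36 (-3.74). Sirpa, the receptor for CD47 (-3.25), Plaur, the urokinase receptor (-3.08), Il6r, the interleukin 6 receptor (-2.95), and Pid1 (-3.35) had 4 or 5 UMIs in the members against 52 to 93 in the others. Slc29a3, a lysosomal nucleoside transporter, had no UMI in the members, which puts it at least 4.40-fold lower at a floor of 3 UMIs over all members. It was tested only through its 20 UMIs in the others, exactly the lowest number tested. It stayed called in 3 of the 9 fits that left out 1 rat, and was not called with no filter on low counts.

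The 10 macrophage and dendritic cell markers in the tables, of 14 listed, summed to 1.18 UMIs per 10000 in the members (0 to 7.92 over rats) and to 10.3 in the other low-enterocyte nuclei (0 to 27.3), with 2 of the 10, Adgre1 among them, without a UMI in the members. A UMI of this list was found in 11 of the 113 members and in 51 of the 241 others. With all those nuclei left out on both sides, 37 genes were called higher, 28 of them as before, and 8 lower, of which Lef1 alone was among the 17. When only nuclei with a T cell marker UMI were kept on both sides, 19 genes were higher, 17 of them as before, and 5 lower, Lef1, Prkcq, Il6r and Psap among them. Both settings were chosen after the data were seen.

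Lef1 was called lower under both of these settings, but not once the members with 10 or more rule UMIs were left out. Its level was 3.46, 0 and 0 in sham, 0, 0.834 and 4.15 under placebo and 0 in all 3 PL8177 members, against 14.1, 0 and 4.81, 0, 0.225 and 13.9, and 5.93, 4.26 and 2.94 in the others (log2 fold change -2.21 ± 0.56 SE, edgeR adjusted p = 0.011). GR12 and GR24 thus held 170 of the 185 UMIs in the others. Of the 9 naive and central memory genes in the tables, 7 were tested, all 7 had a fold below 0, and Lef1 alone was called, with a list median of -1.24. Foxp1, a transcription factor of naive T cells (137 UMIs in the members, -0.63), Satb1, a chromatin organiser (32 UMIs, -1.24), and Tcf7, the partner of Lef1 (28 UMIs, -0.50), did not pass the test (edgeR adjusted p = 0.78, 0.49 and 1.00).

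Members with exactly 1 rule UMI and members with more are set side by side here. Lef1 had 20 UMIs in 4 of the 40 nuclei with 1 rule UMI (5.63 per 10000) and 2 UMIs in 2 of the 73 nuclei with more (0.200). Satb1 had 24 UMIs in 4 and 8 UMIs in 6 of these nuclei (6.75 and 0.799). Themis ran the other way, at 6.47 and 14.7 per 10000, as did Cd247, the zeta chain of T cell and natural killer receptors, at 3.66 and 10.4, and Il2rb at 0.563 and 3.49. Itgae stood at 4.22 and 3.89. These are values of pooled nuclei without a test. Without the 14 nuclei of 10 or more rule UMIs, 8 genes were called higher, 7 of them as before, and 9 lower, and 6 of those 14 nuclei came from GR12. Without GR12 8 genes were called higher and 10 lower, all 8 and 9 of the 10 as before. Without GR23, 22 were higher. Without GR24, 9 were lower, and without GR41, 31.

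**Figure D4:**
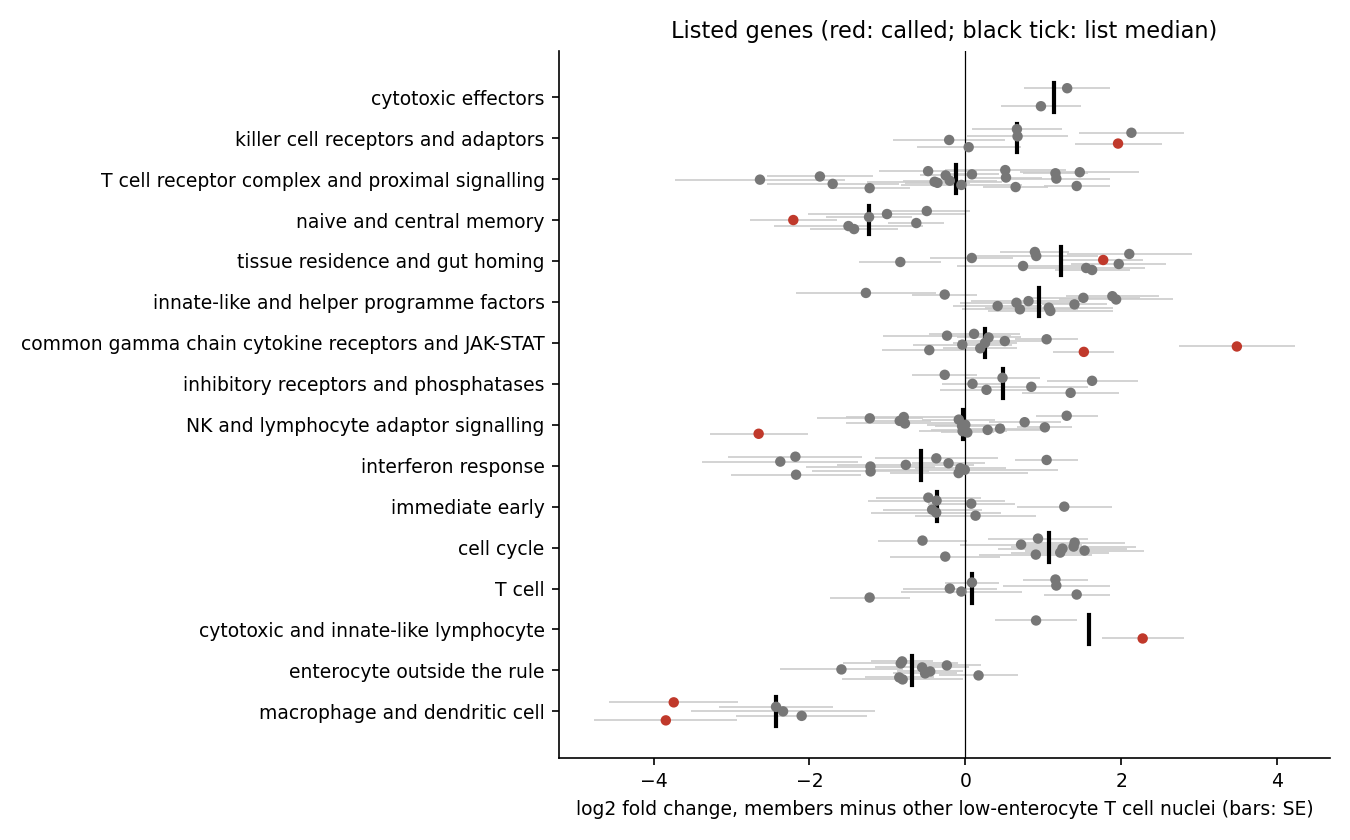
Log2 fold changes (members minus other low-enterocyte nuclei) with their SE for the tested genes of each list, red where called, with the list median as a black tick; the row of the cytotoxic and innate-like markers holds Cd96 and Il2ra, given as a description. Macrophage, naive and enterocyte lists lie to the left of 0, tissue residence, innate-like factors and cell cycle to the right, and most single genes are not called.

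The lists of the wider programme are given by counts, beside the 0.777% and 0.389% called among all genes. Of the tissue residence and gut homing genes, 14 of 19 were in the tables and 10 tested: Itgae was called, 9 had a fold above 0 and the list median was 1.23. Runx3, a factor of CD8 and resident lymphocytes (66 UMIs in the members, log2 fold change 0.89), Ahr, the aryl hydrocarbon receptor that intraepithelial lymphocytes need (62 UMIs, 1.63), and Itga1, the CD49a integrin chain (36 UMIs, 1.97), did not pass (edgeR adjusted p = 0.62, 0.053 and 0.080). Ahr had 4.57 UMIs per 10000 in the members and 1.21 in the others. With macrophage marker nuclei left out, Runx3 (1.96, edgeR adjusted p = 0.039) and Rgs1 (3.91, edgeR adjusted p = 0.023) of this list were called higher. Rgs1, named here after its values were seen, was also called among nuclei with a T cell marker UMI (5.04, edgeR adjusted p = 0.011). Itgae was called in neither setting.

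Of the innate-like and helper programme factors, 12 of the 22 in the tables were tested and none called, with a median of 0.94 and 4 at an unadjusted p below 0.05. Ikzf3, a lymphoid zinc finger factor (92 UMIs, 1.40), Tbx21, the T-bet factor of type 1 responses (34 UMIs, 1.88), and Rora (34 UMIs, 1.51) had adjusted p-values from edgeR of 0.061, 0.091 and 0.57, and Tox, a factor of innate lymphoid and exhausted T cells, had 82 UMIs and -0.27. Kit, the stem cell factor receptor found on some innate lymphoid cells, had 27 UMIs in 15 members (1.93, edgeR adjusted p = 0.26). The killer cell receptors and adaptors outside the rule had 14 genes in the tables and 6 tested: Cd244 was called and the median was 0.66. Klrd1, the CD94 partner of NKG2 receptors, had 30 UMIs in 20 members against 9 in the others (2.13, edgeR adjusted p = 0.090), Sh2d1b, an adaptor of the 2B4 family, 26 (0.66), Klrb1b, an inhibitory NKR-P1 receptor, 18 (0.67), and Cd226, the activating counterpart of Cd96, 17 (0.04).

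Of the cytotoxic effectors, only Srgn (1.31) and Rab27a (0.97) had enough UMIs to be tested and neither was called (edgeR adjusted p = 0.41 and 0.70). The common gamma chain cytokine receptor and JAK-STAT list had 11 of 17 genes tested, Il2rb and Bcl2 called, and a median of 0.25. Jak1, a kinase of these receptors, had 82 UMIs in the members (log2 fold change 0.25, edgeR adjusted p = 1.00).

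T cell receptor genes lay to both sides. Of 18 tested, 8 had a fold above 0 and 10 below, none was called, and the median was -0.13, with summed levels of 75.5 UMIs per 10000 in the members and 77.1 in the others. With macrophage marker nuclei left out, Bcl11b (-2.30) and Prkcq (-2.78) of this list were called lower (edgeR adjusted p = 0.028 for each). Prkcq was also lower among nuclei with a T cell marker UMI (-2.67, edgeR adjusted p = 0.030). Themis (170 against 91 UMIs, log2 fold change 1.15) and Cd247 (117 against 83, 1.43) had adjusted edgeR p-values of 0.23 and 0.053, Skap1, an adaptor of integrin activation (181 against 296, 0.08), and Ptprc, the CD45 phosphatase (183 against 411, -0.25), both 1.00. Cd4 had 5 UMIs in the members and 24 in the others.

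Of the remaining lists, inhibitory receptors and phosphatases (7 tested, median 0.48), interferon response (12 tested, -0.57), immediate early genes (7 tested, -0.37) and cell cycle genes (10 tested, 1.07) had no gene called. Of the 15 genes tested from the natural killer and lymphocyte adaptor signalling list, only Aoah, an acyloxyacyl hydrolase, was called, lower in the members at -2.65. In the regulatory T cell list, 4 of the 8 genes in the tables, Foxp3 and Ctla4 among them, had no UMI in the members, and no gene was tested. Markers of other cells summed, in the members and in the other low-enterocyte nuclei, to 1.18 and 2.19 UMIs per 10000 for B and plasma cells, 0.737 and 1.02 for mast cells, 0.663 and 5.15 for tuft cells, and 2.06 and 5.2 for smooth muscle and fibroblasts. Goblet cell markers were higher in the members, at 5.01 against 3.35 and 2.08 in enterocyte nuclei, with a UMI in 28.3% of members and 16.6% of the others. Enteroendocrine markers (0.368 and 0.146) and endothelial markers (0.516 and 0.389) rested on 5 and 7 UMIs in the members, and the 1 neutrophil marker in the tables had none. Enterocyte genes outside the rule summed to 26.2 in the members, 45.3 in the other low-enterocyte nuclei and 184 in enterocyte nuclei. Their part in the results was not tested.

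The last comparison asked whether genes differed by treatment within the members. With 1836 genes tested in 1 fit of all 9 rats, the called genes were few, and each rested on 1 nucleus or 1 rat. Mgp, a matrix calcification inhibitor of stromal cells, was the single gene called for sham against placebo (0.0545% of those tested), with 34 UMIs, all in GR12 and 31 of them in 1 nucleus. Zeb2 was the single gene called for PL8177 against placebo (0.0545%). It was at 0 in all 3 placebo rats, at 1.97, 0 and 1.99 in sham, and at 19.0, 0.543 and 0 in PL8177 members. Fam49a, a regulator of the actin cytoskeleton, Ly75, the endocytic receptor DEC-205, and Tbc1d8, a Rab GTPase-activating protein, were higher for PL8177 against sham (0.163%). By edgeR, 0 genes were called lower in any of the 3 comparisons. Without adjustment, 78 genes had p below 0.05 in the first, 68 in the second and 73 in the third.

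The 4 genes called in PL8177 shared a source. A nucleus of GR41 with 3752 UMIs, 59.4% of all member UMIs of that rat, held 12 of its 12 Zeb2 UMIs, 23 of 24 Fam49a, 25 of 26 Ly75 and 17 of 17 Tbc1d8 UMIs. It entered the members through a single Klrc3 UMI, had no UMI of the 13 T cell markers, and had 4 Csf1r UMIs, a gene of macrophages and dendritic cells. Without that nucleus GR41 stood at 0, 3.90, 3.90 and 0 UMIs per 10000 for these genes, against 19.0, 38.0, 41.2 and 26.9 with it. Without GR41, no gene was called for PL8177 against placebo or against sham. Without GR12, none was called for sham against placebo or PL8177 against sham, and without GR22, GR23 or GR24 none for sham or PL8177 against placebo. PL8177 against placebo gave 3 genes without GR12, 4 without GR13, 2 without GR15 and 7 without GR43 or GR44, and PL8177 against sham gave 5 without GR44.

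**Figure D5:**
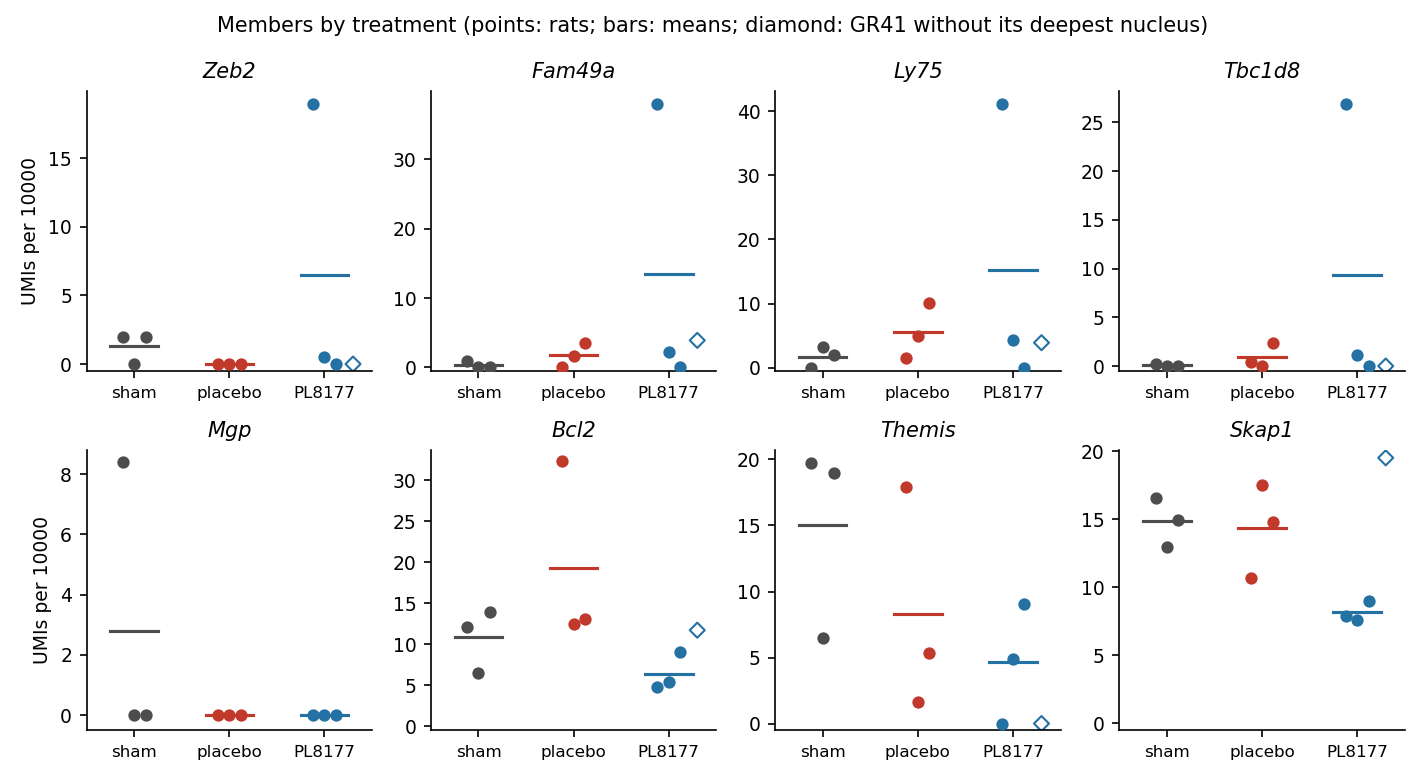
UMIs per 10000 in the members for 8 genes by treatment, 1 point per rat with a bar at the mean of 3 rats, and a diamond for GR41 without its deepest nucleus. For Zeb2, Fam49a, Ly75 and Tbc1d8 the diamond falls to the level of the other rats, Mgp is seen in GR12 alone, and for Skap1 the diamond at 19.5 lies above every other rat.

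Other genes with small p-values did not pass. Themis was at 19.7, 6.49 and 18.9 in sham, 17.9, 1.67 and 5.33 under placebo and 0, 4.89 and 9.02 in PL8177 members, and the groups overlapped (PL8177 against sham, log2 fold change -2.13, edgeR adjusted p = 0.58). Bcl2 was at 12.1, 6.49 and 14.0 in sham, 32.3, 12.5 and 13.0 under placebo and 4.75, 5.43 and 9.02 in PL8177 members, so that every PL8177 rat lay below every placebo rat (-2.02, edgeR adjusted p = 0.61). Skap1 was at 16.5, 13.0 and 15.0 in sham, 10.7, 17.5 and 14.8 under placebo and 7.92, 7.61 and 9.02 in PL8177 members, below the other 6 rats throughout (-1.01 against sham and -1.08 against placebo, edgeR adjusted p = 0.99 and 1.00). Of all 1836 genes tested, 11.3% had the PL8177 and placebo rats fully apart, in either direction, and 8.12% the PL8177 and sham rats. Without its deepest nucleus, GR41 rose to 11.7 for Bcl2, still below the placebo rats, and to 19.5 for Skap1, above all other rats. RT1-A2, a class I histocompatibility gene, was at 9.87, 29.2 and 6.98 in sham, 0.761, 0 and 4.74 under placebo and 3.17, 0 and 45.1 in PL8177 members (sham against placebo, 2.44, edgeR adjusted p = 0.40); reads of such closely related genes may be shared out differently. Dnajc6 was at 1.97, 13.0 and 11 in sham and 0, 1.09 and 0 in PL8177 members (-2.97, edgeR adjusted p = 0.58). Cftr, an epithelial chloride channel, was among the genes with the smallest p for placebo above sham (-2.39 for sham against placebo, edgeR adjusted p = 0.84). Of its 39 UMIs, 18 came from the deepest member, a GR22 nucleus of 10783 UMIs with 4 rule UMIs and 12 T cell marker UMIs. That nucleus also held 16 of 26 Sema5a, 13 of 31 Malrd1 and 9 of 26 Tox3 UMIs. Sema5a and Malrd1 were among the smallest p-values for placebo above sham, and Tox3 for placebo above PL8177. None of them was called.

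St6galnac3 and Chn2, among the genes that set the members apart, were seen in all treatments. Other such genes were sparser: Il2rb had 3 UMIs in PL8177 members, all in GR43, against 18 in sham and 16 in placebo members. The mean level of St6galnac3 was 23.1 ± 15.8 (SD, n = 3) in sham, 24.2 ± 5.85 (SD, n = 3) under placebo and 26 ± 13.9 (SD, n = 3) in PL8177 members, and of Chn2 17.8 ± 10.7, 17.4 ± 13.6 and 12.7 ± 8.65 (SD, n = 3 each). Neither passed in any comparison (edgeR adjusted p from 0.99 to 1.00). Whether the difference between members and other low-enterocyte nuclei itself changed with treatment was tested as an interaction over 4373 genes, where edgeR gave 0 genes past an adjusted p of 0.05 in the 3 comparisons. Unadjusted, 58 genes passed for sham against placebo, 71 for PL8177 against placebo and 65 for PL8177 against sham.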

How the data were processed

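Single nuclei of 9 rat colons were sequenced as 3′ libraries. The authors used Cell Ranger 6.0.1 on Rnor 6.0, introns included, to count UMIs, removed empty droplets and technical noise with CellBender, required 200 genes per nucleus, less than 5% mitochondrial reads and 3 cells per gene, and assigned cell types in Seurat 4.0.3 after integrating the samples. The authors deposited these whole UMI counts for T cells and enterocytes of each treatment, 6 tables in all. The placebo T cell table ends early, so the first 15108 of 17388 genes were compared. The T cell and enterocyte assignments are the study's.

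The members and gene lists were chosen with earlier results of these data known. UMIs were summed per rat and class. edgeR 4.0.16 (R 4.3.3; TMM, glmQLFit, glmQLFTest, Benjamini-Hochberg) tested genes with at least 20 UMIs over the sums fitted, without the rule genes, with the rat as a block between classes because both classes come from the same rat, and without a block between treatments. Genes past an adjusted p of 0.05 with a log2 fold change beyond 1.5 either way were called. Shares carry Clopper-Pearson 95% intervals (counting error only) and exact two-sided permutation tests. Levels are UMIs per 10000 UMIs, not corrected for gene length. Named genes are the rule genes and markers, of each list the genes called and the 4 with most UMIs in the members, the 10 genes per direction with the largest fold among those called, and the 5 per direction with the smallest p in each treatment comparison; a selection is printed, some of these genes are not reported here, and genes named outside this rule are said to be. Scrublet in scanpy 1.11.5 marked 84 of 9800 nuclei, 8 of them T cell nuclei of GR23; they were kept. Python 3.11.15, scipy 1.17.1 and DESeq2 1.42.0 (an alternative) were also used. The edgeR step was tested on simulated data. Alternatives covered the denominator, the rule, the depth, the filter, the tool, the block, doublets and each rat left out.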

Additional observations from a re-analysis of the deposited data

How the results depend on the processing

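No setting gave an exact permutation p below 0.2 for the share of members by treatment, and the sign of the differences was unsettled. With 1 rat left out, a comparison of 3 against 2 rats cannot go below 0.2, so such fits could not show less. PL8177 against sham without GR43 reached that floor (-12.6 percentage points). Among low-enterocyte nuclei it was reached by sham against placebo without GR22 (18.8) and PL8177 against sham without GR43 (-12.4). Sham against placebo turned to -2.0 percentage points with UMIs of at least 2 of the 5 genes required. PL8177 against placebo turned to -0.0208 with at least 2 UMIs, -4.96 with at least 2 genes and -2.61 without Clnk. Among T cell and enterocyte nuclei together it turned to -0.571 (means of 0.755% under PL8177 and 1.33% under placebo). PL8177 against sham was -0.618 there (1.37% in sham), and the exact permutation p was 0.2 for each. These shares are far smaller, so their points are not on the scale of the T cell shares. Leaving out each rat gave -4.22 to 19.8 for sham against placebo, -11.1 to 12.9 for PL8177 against placebo and -12.6 to -3.37 for PL8177 against sham, and among low-enterocyte nuclei (added later) -4.98 to 18.8, -6.89 to 16.9 and -12.4 to 4.65. In that last set the sign also turned for PL8177 against placebo without GR43 (-6.81) and for PL8177 against sham without GR15 (0.517) and GR41 (1.99).

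For members against other low-enterocyte nuclei, the counts called higher and lower were 55 and 255 against all other T cell nuclei, 1 and 0 with edgeR's filterByExpr, which left 33 genes (3 and 3 at an unadjusted p below 0.05), 8 and 11 with no filter beyond 1 UMI, and 27 and 11 with DESeq2. Members with at least 2 UMIs gave 35 and 36. Without the replicate block there were 44 and 45, so the block, which pairs the classes of a rat, changed the calls lower by more than 1.5 times. Among the settings added later, macrophage marker nuclei left out gave 37 and 8, T cell marker nuclei alone 19 and 5, and members of 10 or more rule UMIs left out 8 and 9. Leaving out each rat gave 8 to 41 higher and 9 to 31 lower. The 20 genes with the largest folds kept their direction in all 323 refits that tested them. They were chosen by those folds and the refits reuse most of the same nuclei, so this is no independent support. They were called in 268 of the 323, and refits in which a gene was not tested are not counted. The rest include genes to which DESeq2 gave no adjusted p, which are not lost calls.

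Between treatments no gene was called with filterByExpr, with no filter or with DESeq2 (0 in each; DESeq2 had 15, 22 and 27 genes at an unadjusted p below 0.05, edgeR after filterByExpr 5, 4 and 9, and edgeR with no filter 272, 245 and 250), and leaving out each rat gave 0 to 1, 0 to 7 and 0 to 5 genes for sham against placebo, PL8177 against placebo and PL8177 against sham. No paired analysis was possible because the rat tags carry no number that pairs rats across treatments. The causes were not tested. Few UMIs per rat, 2217 to 40511 in the members, limit every gene result.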
